A study of Mus musculus with 6 samples.

Results

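Chemokines and chemokine receptors were examined in the spleens of cyclophosphamide-treated mice with and without schisandrol A (SA), a lignan of Schisandra chinensis. The genes were taken by name, as every probe apart from controls whose RefSeq transcript carried a Ccl, Cxcl, Ccr, Cxcr, Xcl, Xcr or Ackr symbol with a number, or was Cx3cl1, Cx3cr1 or Ccrl2. This gave 57 genes, 34 ligands and 23 receptors, measured by 68 probes, out of 20659 genes with a symbol on the array. Male ICR mice, an outbred strain bought at 8 weeks of age, received cyclophosphamide, an alkylating immunosuppressant, at 40 mg/kg for 5 days in both groups. The MOD group (3 arrays, numbered 1, 2 and 3) then received water, and the SA-H group (3 arrays, numbered 4, 5 and 6) received SA by gavage, at 1000 mg/kg per day for 28 days according to the sample labels. The study's methods give another dose and a shorter course. By the labels MOD was sampled at day 5 and SA-H at day 28. If so, the effect of SA and that of time cannot be told apart, although the protocol also describes 4 weeks of water for the model mice. Spleens of mice without cyclophosphamide were not analysed here. Whether each array stands for its own mouse is not stated, so p-values measure only the spread between these samples, and this spread may be technical.

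Chemokines are small secreted proteins that direct the movement of leukocytes, and they act through receptors coupled to inhibitory G proteins. In the spleen, stromal cells make Cxcl13, Ccl19, Ccl21 and Cxcl12, which place B cells, T cells, dendritic cells and plasma cells in their zones. Inflammatory chemokines are induced by infection or tissue damage and bring neutrophils, monocytes and effector lymphocytes. Atypical receptors bind chemokines without G protein signaling and remove, carry or store them.

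Each array was read as Cy3 intensity by Agilent Feature Extraction, and levels are given as log2 of the processed signal relative to the 75th percentile of the same array. This percentile ranged from 220 to 868 intensity units, 43.1% to 73.9% of 43020 spots were well above background, and 0 were saturated. MOD array 2 and SA-H array 5 had the highest shares of spots above background. SA-H array 4 stood apart, with correlations of 0.839 to 0.928 with the other arrays over the 14574 genes and unnamed targets tested, against 0.909 to 0.975 among the other 5. Scanning took 3 days, with MOD arrays 1 and 3 and SA-H array 6 read on the first, MOD array 2 together with SA-H array 4 on the second, and SA-H array 5 by itself on the third. Of the lists of spleen cell markers, 12 of 12 T cell and 11 of 12 B cell genes passed the detection limit, against 2 of 10 liver genes. The extraction protocol in the labels starts from spleen but goes on to speak of liver powder. In these bulk samples, fewer cells of a type and less RNA per cell cannot be told apart.

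The homeostatic and receptor genes were measured far more often than the inducible ligands. Of the 57 genes, 29 were well above background on all 6 arrays, 19 on 1 to 5 arrays and 9 on no array. The number detected was 31, 45 and 35 in MOD against 35, 48 and 36 in SA-H, and it was highest on the array with the highest 75th percentile in each group. Detected on all 6 arrays were 4 of 4 homeostatic ligands on the array (Cxcl12, Cxcl13, Ccl19 and Ccl25), 2 of 2 interferon-induced ligands of Cxcr3, 7 of 8 receptors of the CXC, C and CX3C kinds and 4 of 5 atypical receptors. Of the 4 monocyte attractants (Ccl2, Ccl7, Ccl8 and Ccl12), 0 were detected on all arrays. Of the 11 eosinophil, Th2 and barrier ligands this held for Ccl27a alone, and of the 5 neutrophil attractants with the ELR motif for Cxcl5 alone. The genes not well above background on any array were Ccl1, Ccl7, Ccl12, Ccl20, Ccl22, Ccl26, Ccl28, Cxcl2 and Cxcl3, for which these arrays set no level.

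**Figure D1:**
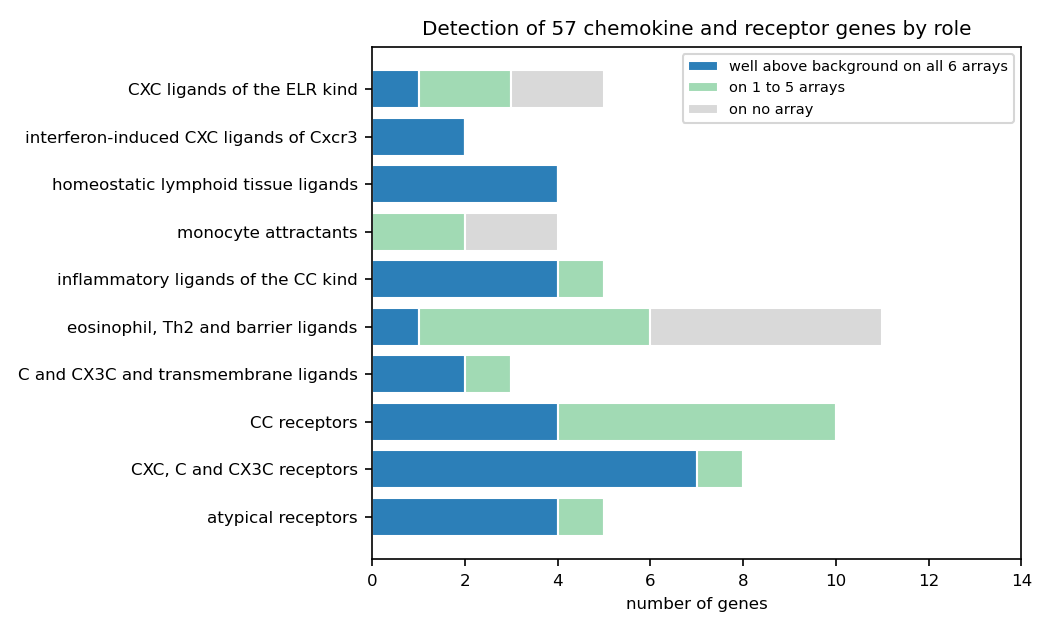
Number of genes (x axis) in each functional group of chemokines and receptors (y axis) that were well above background on all 6 spleen arrays, on 1 to 5 arrays or on no array. Homeostatic ligands, 4 of 4, and atypical receptors, 4 of 5, were detected throughout, while 0 of 4 monocyte attractants were.

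Testing required a probe well above background throughout at least 1 of the groups. A gene was called changed at a fold change of at least 2 with an unadjusted p under 0.05 (limma, SA-H minus MOD). This left 33 of the 57 genes, 29 of them through both groups, 2 through the MOD group only and 2 (Ccr9 and Ccl3) through the SA-H group only. Among the 33, 2 were called lower in the SA-H group, Ackr1 and Cxcr4, which is 6.06% against 5.04% of all genes tested, and 0 were called higher, against 7.77%. At an unadjusted p under 0.05 alone, 3 were lower (9.09%, against 12.5% of all genes) and 0 were higher (against 10.8%). After Benjamini-Hochberg adjustment over all genes in limma, 0 chemokine genes and 0 genes overall passed 0.05. The smallest adjusted p was 0.0828 in the family, for Ackr1, and 0.0716 overall. The median log2 fold change was 0.00 over the 33 genes and -0.04 over all genes tested, with 17 of the 33 above 0. The groups did not overlap, with SA-H below MOD, for 5 genes (15.2%, against 20.7% of all genes), and with SA-H above MOD for 2 (6.06%, against 12% of all genes). Of the latter, Ccl3 was tested only through the SA-H group, where it is higher, so its place in that count is no support. Each of these shares lay near or below that of all genes.

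The direction of such calls depended on the scaling. With arrays scaled by their medians, which lowered the median of all genes to -0.36, 5 chemokine genes were called lower (15.2%, against 14.9% of all genes) and 0 higher (against 6.91%), and over all genes the share of higher calls went from 60.7% to 31.7%. In the value table deposited by the authors it was 23.1%, with 2 chemokine genes called higher (6.06%, against 2.09% of all genes) and 3 lower (9.09%, against 6.96%). Of the 33 chemokine genes, 13 had the other sign there than in the scanner values. That table is not a rescaling of the scanner values. Over 13882 probes well above background on every array, its columns correlated with the scanner file of the same sample at 0.832 to 0.908, whereas every scanner file correlated with another scanner file at 0.934 to 0.972. For every scanner file but that of MOD array 1, the best-correlated column belonged to another sample (for MOD array 3, 0.876 against 0.833). With each probe centred on its mean, the correlation with the own column ran from -0.27 for MOD array 3 to 0.47 for MOD array 1. How the table was made is not given in the sources used here.

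**Figure D2:**
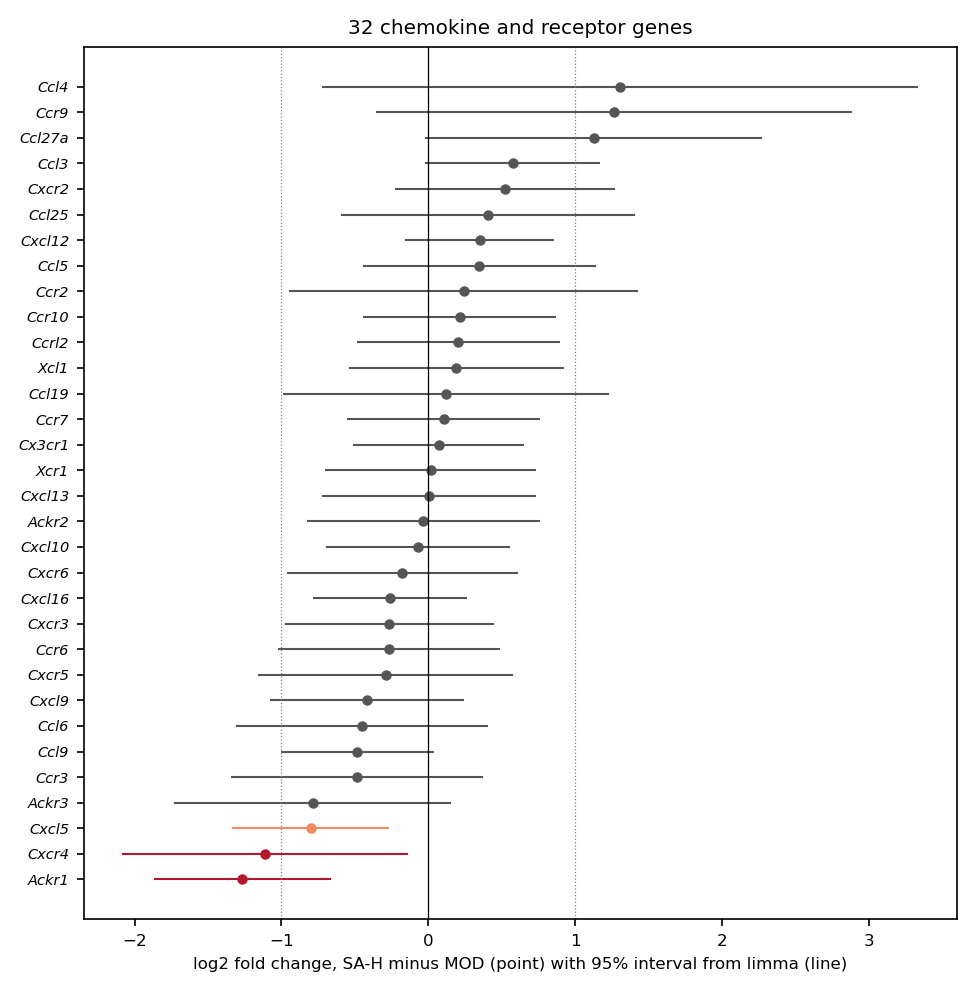
Log2 fold change of SA-H minus MOD (x axis, points) with the 95% interval from limma (lines) for 32 of the 33 tested chemokine and receptor genes (y axis), ordered by size; dotted lines mark a fold change of 2. Ackr1 and Cxcr4 (red) were called lower at -1.27 and -1.11, Cxcl5 (orange) passed the unadjusted p only, and the intervals of the other genes drawn (grey) include 0.

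Ackr1, the Duffy antigen, was lower in the SA-H group and was the clearest difference in the family. It is an atypical receptor of venular endothelium and of red cells and their precursors that binds inflammatory CC and CXC chemokines. Its log2 level was 1.14, 1.03 and 1.01 in MOD against 0.14, -0.53 and -0.24 in SA-H, in the order of the array numbers, as for all values per array that follow. Every SA-H array lay below every MOD array. The group means were 1.06 ± 0.07 (SD, n = 3) in MOD and -0.21 ± 0.33 (SD, n = 3) in SA-H. The log2 fold change was -1.27 (2.41-fold, standard error 0.25, unadjusted p = 0.00145 and adjusted p = 0.0828 from limma). Within the scan days it was -1.31 on the first and -0.89 on the second. The call held under all 17 processing alternatives, with log2 fold changes from -2.28 to -1.11 and adjusted p from 0.0296 to 0.449. In the authors' value table Ackr1 stood at 7.75, 7.65 and 6.61 log2 units in the MOD columns and 5.75, 3.99 and 5.44 in the SA-H columns, without overlap. As given above, a column of that table was not always the best match to the scanner file of its own sample.

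Markers of red cells and of endothelium were read on the same arrays, since both cell types carry Ackr1. For every marker list from here on, the shares among all genes tested were 5.04% called lower and 7.77% called higher. At an unadjusted p under 0.05 alone (limma), they were 12.5% lower and 10.8% higher. Of 12 erythroid markers, 3 were called lower and 0 higher, with a median log2 fold change of -0.52, and their summed log2 level ran from 8.84 to 9.06 in the MOD group and from 8.61 to 9.96 in the SA-H group. Of the 12, 3 had a log2 fold change above 0. Gata1, the master transcription factor of red cell precursors, was at -0.73, and its groups overlapped. The erythroid median was -0.47 within the first scan day and 0.12 within the second. Of 12 tested stromal and endothelial markers, 1 was called higher (Ltbr) and 1 lower (Col3a1), with a median of 0.10 and summed log2 levels of 5.40 to 5.72 and 5.33 to 5.49. Of these 12, 8 had a log2 fold change above 0. Among the endothelial genes, Cdh5 was at -0.30 and Pecam1 at 0.92, both with overlapping groups. All 12 erythroid markers were well above background on every array, as were 11 of the 14 stromal and endothelial ones, and the part of these cells in the lower Ackr1 signal was not tested.

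The promoters of Ackr1 and Cxcr4 are shown because these were the genes of the family that were called. Each runs from 250 bases before to 50 bases after the transcription start (RefSeq, build GRCm38.p6, printed 5′ to 3′ on the strand of the gene, which is the minus strand for both). The Ackr1 promoter lies at chr1:173333454-173333753, and the capitals mark TTATCT, the reverse complement of AGATAA, the core element of GATA factors. In the Cxcr4 promoter, at chr1:128592250-128592549, the capitals mark TATAAA and an overlapping match on the other strand.
Ackr1: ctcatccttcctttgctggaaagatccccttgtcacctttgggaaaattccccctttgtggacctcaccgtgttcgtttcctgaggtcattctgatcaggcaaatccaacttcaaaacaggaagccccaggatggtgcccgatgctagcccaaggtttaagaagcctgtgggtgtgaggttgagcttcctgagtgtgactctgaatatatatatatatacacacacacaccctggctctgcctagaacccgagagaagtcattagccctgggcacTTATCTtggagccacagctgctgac
Cxcr4: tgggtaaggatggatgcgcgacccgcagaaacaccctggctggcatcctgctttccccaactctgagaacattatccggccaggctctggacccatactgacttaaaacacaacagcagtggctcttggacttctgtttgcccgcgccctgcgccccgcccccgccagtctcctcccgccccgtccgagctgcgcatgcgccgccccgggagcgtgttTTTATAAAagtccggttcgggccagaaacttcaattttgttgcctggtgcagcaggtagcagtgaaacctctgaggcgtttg
The GATA element of Ackr1 began 25 bases after the first transcribed base, and the TATA element of Cxcr4 30 bases before the start. On either strand, AGATAA was present in 11.2% and TATAAA in 13.6% of 32851 mouse promoters of the same length, and in 22.4% and 26.5% of the 49 promoters listed for 43 genes of the family. These matches describe the letters only. Cxcl5 had no entry in the promoter table.

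Cxcl12, its signaling receptor Cxcr4 and its scavenger Ackr3 did not share a direction. This ligand holds plasma cells, B cells and blood progenitors in bone marrow and in the red pulp. Cxcr4 was at log2 levels of 0.16, 0.28 and -0.46 in MOD against -0.41, -1.08 and -1.86 in SA-H. SA-H array 4 lay above MOD array 3, so the groups overlapped. The log2 fold change was -1.11 (2.16-fold, standard error 0.41, unadjusted p = 0.0299 and adjusted p = 0.176 from limma), and it was -1.71 and -0.69 within the scan days. The call of Cxcr4 was kept under 9 of 17 alternatives, with log2 fold changes from -1.46 to -0.74 and adjusted p from 0.0372 to 0.518. It was lost without MOD array 1 (-1.03), without MOD array 2 (-0.97) and when either SA-H array 5 (-1.13) or SA-H array 6 (-0.74) was left out, and it was -1.33 without MOD array 3.

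Ackr3, which removes Cxcl12 from the surroundings of the cell, was at 1.54, 1.39 and 1.76 in MOD against -0.11, 1.18 and 1.25 in SA-H. The groups did not overlap, but SA-H array 4 set most of the difference, and the log2 fold change of -0.79 (standard error 0.40, unadjusted p = 0.0868) became -0.35 without it. It was -1.11 and called with scaling by the median, and 0.13 in the authors' value table. Cxcl12 itself was at 2.73, 2.67 and 2.68 in MOD against 3.13, 2.93 and 3.06 in SA-H. All SA-H arrays were above all MOD arrays, by a log2 fold change of 0.35 with a 95% interval of -0.15 to 0.85 (unadjusted p = 0.143), and by 0.03 with scaling by the median. A second kept probe, for another Cxcl12 transcript, had a log2 fold change of -0.13, so the probes disagreed in sign.

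**Figure D3:**
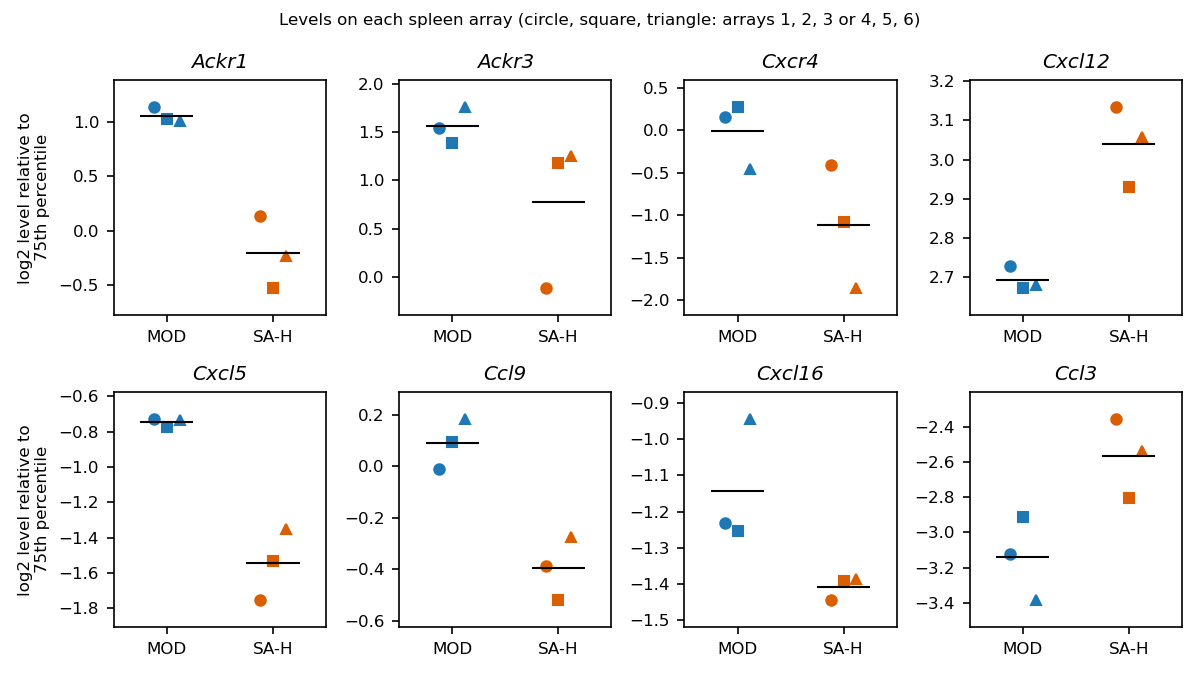
Log2 level with the array's own 75th percentile at 0 (y axis) of 8 genes, those past the unadjusted p or without overlap between the groups; circle, square and triangle stand for MOD 1, 2, 3 (blue) or SA-H 4, 5, 6 (orange), and each bar is a mean of 3. Ackr1 and Cxcl5 lie lower on every SA-H array, Cxcr4 overlaps between the groups, and SA-H array 4 holds the lowest Ackr3 value.

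Cxcl5, a neutrophil attractant that acts through Cxcr2, was lower after SA by its unadjusted p, but did not reach a fold change of 2. It was at -0.73, -0.77 and -0.73 in MOD against -1.75, -1.53 and -1.35 in SA-H, without overlap. The log2 fold change was -0.80 (1.74-fold, standard error 0.22, unadjusted p = 0.00876 and adjusted p = 0.114 from limma), with -0.62 and -0.98 within the scan days. It was 0.19 in the authors' value table, the opposite sign. Its receptor Cxcr2, carried by neutrophils, was at -1.63, -1.89 and -1.77 in MOD against -1.84, -1.08 and -0.80 in SA-H. The groups of Cxcr2 overlapped, with a log2 fold change of 0.52 and a 95% interval of -0.22 to 1.26. It was called higher in the authors' value table, at 1.01 (limma adjusted p = 0.0131, with 0.0131 to 0.836 over the alternatives). Cxcr1 was well above background on 3 arrays, and Cxcl1 and Cxcl15 on 1 array each. Of 10 tested neutrophil markers, 1 was called higher (Csf3r, the G-CSF receptor gene, at 1.51) and 0 lower. At an unadjusted p under 0.05, 2 were higher and 1 was lower (Ngp, a granule protein gene, at -0.94). The list had a median of 0.05 and summed log2 levels of 8.26 to 8.66 in the MOD group and 8.48 to 10.02 in the SA-H group. Their part in the values of Cxcl5 and Cxcr2 was not tested.

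The chemokines that build the white pulp showed no difference beyond their spread. Cxcl13, made by follicular stromal cells to draw in B cells, was at 2.63, 2.38 and 3.34 in MOD against 2.98, 2.74 and 2.65 in SA-H. The groups overlapped, with a log2 fold change of 0.00 and a 95% interval of -0.72 to 0.73. Cxcr5, its receptor on B cells, was at 3.21, 2.73 and 3.64 and at 2.30, 3.06 and 3.34, a log2 fold change of -0.29 with an interval of -1.15 to 0.57. The authors' value table had both genes higher in the SA-H columns, by 1.24 for Cxcl13 (limma adjusted p = 0.0111, with adjusted p from 0.0111 to 0.999 over the alternatives) and by 0.80 for Cxcr5 (limma adjusted p = 0.0141, with 0.0141 to 0.990). No scanner-based alternative gave either gene an adjusted p under 0.05. Of 11 tested B cell markers, 1 was called higher (Fcer2a) and 0 lower, with a median of -0.11. Fcer2a was tested only through the SA-H group, where it is higher, so its call is no support.

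Ccl19, which guides T cells and dendritic cells into the T zone, was at 0.37, 0.21 and 1.72 in MOD against 0.32, 1.00 and 1.34 in SA-H. Its log2 fold change was 0.12 with a 95% interval of -0.98 to 1.22, and its other kept probes gave 0.67 and 0.13. Ccr7, the receptor of Ccl19 and Ccl21, was at 2.78, 2.71 and 3.40 in MOD against 2.95, 2.96 and 3.30 in SA-H. It had a log2 fold change of 0.10 with an interval of -0.55 to 0.75, so a change of 2-fold in either direction lies outside the interval. The Ccl21 genes were matched by no probe through a RefSeq accession and are not analysed here. Ccr6, a receptor of B cells and of interleukin-17 producing T cells, had a log2 fold change of -0.27 with overlapping groups, but 0.90 in the authors' value table (limma adjusted p = 0.0231, with 0.0231 to 0.974 over the alternatives). Its ligand Ccl20 was not well above background on any array. Ccl25 had a log2 fold change of 0.41 and its receptor Ccr9, found on gut-homing cells and plasmacytoid dendritic cells, of 1.27. The groups overlapped for both genes, and Ccr9 was well above background on 2 of the 3 MOD arrays. With the scan day as a term Ccr9 was at 1.15 and without MOD array 2 at 1.88, both called, but it was tested only through the SA-H group, where it is higher.

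**Figure D4:**
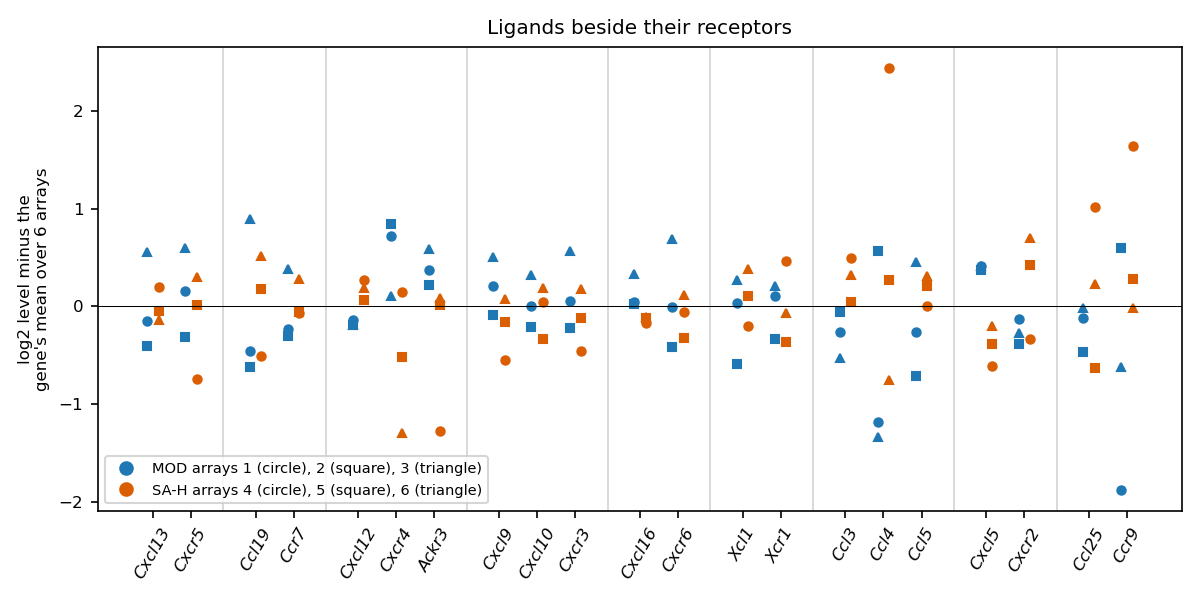
Log2 level of each gene minus its mean over the 6 spleen arrays (y axis) for ligands placed beside their receptors (x axis); MOD is blue and SA-H orange, with symbols by array number. The groups overlap for Cxcl13 and Cxcr5 and for Ccl19 and Ccr7, while SA-H array 4 lies far from the rest for Ccl4.

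Inflammatory CC ligands had no common direction, and none was called. Ccl9, a macrophage and myeloid chemokine, was at -0.01, 0.09 and 0.18 in MOD against -0.39, -0.52 and -0.27 in SA-H. The groups did not overlap, and the log2 fold change was -0.48 (95% interval -0.99 to 0.03, unadjusted p = 0.0605). Ccl6, of the same cells, was at -0.45 with overlapping groups. Ccl3 was at -3.12, -2.91 and -3.39 in MOD against -2.36, -2.81 and -2.54 in SA-H. The log2 fold change was 0.57, given as a description, since 2 of the 3 MOD arrays did not have the probe well above background and the gene entered the test only through the SA-H group. The authors' value table had Ccl3 at -1.20.

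Ccl4 varied more between arrays than any other of these ligands. It was at 4.17, 5.92 and 4.02 in MOD against 7.79, 5.63 and 4.60 in SA-H. MOD array 2 and SA-H array 4, which shared a slide scan, held the highest value of each group. The log2 fold change of 1.30 had a 95% interval of -0.72 to 3.33 and was 0.41 without SA-H array 4. It was called without SA-H array 6, at 2.01, and in the fit that included scan day, at 1.09, and it was -0.12 in the authors' value table. Ccl5, made by T cells and NK cells, was at 3.42, 2.97 and 4.14 in MOD against 3.69, 3.89 and 3.99 in SA-H, with a log2 fold change of 0.35 and an interval of -0.44 to 1.13. Of 6 tested NK cell markers, 0 were called, 3 were higher at an unadjusted p under 0.05, and the median was 0.82, with summed log2 levels of 3.95 to 4.09 in the MOD group and 4.48 to 5.32 in the SA-H group. The median of the 12 T cell markers was 0.01.

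The receptor genes Ccr2, Ccr3, Ccr10 and Cx3cr1 were not called. Ccr2, the receptor that takes monocytes out of the bone marrow, was at 0.16, -0.10 and -1.73 in MOD against -0.60, -0.02 and -0.34 in SA-H. MOD array 3 was far below the other MOD arrays, and the log2 fold change of 0.24 had a 95% interval of -0.94 to 1.42. Ccr3, the eosinophil receptor, was at -0.49 and Ccr10 at 0.21, and the groups overlapped for each. Cx3cr1, which marks patrolling monocytes, was at 1.18, 0.93 and 1.36 in MOD against 1.42, 1.00 and 1.26 in SA-H, a log2 fold change of 0.07 with an interval of -0.51 to 0.65. Ccr1 was well above background on 2 arrays and Ccr4 and Ccr8 on 3, so they were not tested. Of 10 tested red pulp macrophage and monocyte markers, 1 was called lower (C1qa) and 0 higher, with a median of -0.57. C1qa was tested only through the MOD group, where it is higher, so its call is no support.

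Cxcl9 and Cxcl10, induced by interferon gamma to attract activated T cells through Cxcr3, were at log2 fold changes of -0.42 and -0.07, and Cxcr3 at -0.27. The groups of all of these genes overlapped. A second probe of Cxcl9 gave -0.40. Cxcl16, a membrane-bound ligand of macrophages and dendritic cells, was at -1.23, -1.25 and -0.95 in MOD against -1.44, -1.39 and -1.39 in SA-H. The groups of Cxcl16 did not overlap, although the log2 fold change was only -0.26 (unadjusted p = 0.267), and its receptor Cxcr6 was at -0.18. Xcl1, made by CD8 T cells and NK cells, and Xcr1, its receptor on cross-presenting dendritic cells, were at 0.19 and 0.02. Cx3cl1, the ligand of Cx3cr1, was well above background on 3 arrays.

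Among the ligands of barrier tissues, Ccl27a, a skin chemokine, was at -1.45, -0.31 and -1.49 in MOD against 0.88, -0.63 and -0.14 in SA-H. The groups overlapped, and the log2 fold change of 1.12 (95% interval -0.02 to 2.27) had an unadjusted p = 0.0527 from limma's fit over all genes. The other kept probe, which was dimmer and did not stand for the gene, gave 1.13. Its unadjusted p = 0.0471 (adjusted p = 0.207, limma over all kept probes) met the rule for a call, so the call depended on the probe. Ccl27a was called higher under 7 of 16 alternatives, among them those without MOD array 2 (1.51) and without SA-H array 5 (1.46), and it was at 0.70 without SA-H array 4 and at 0.11 in the authors' value table. Fitting the scan day as a term, which takes nothing from SA-H array 5, gave 1.27 and an adjusted p of 0.036, against a range of 0.036 to 0.698 over the alternatives. Ccl27a has a near-identical copy, Ccl27b, and the probe may not separate them. Ccl11 and Ccl24, which attract eosinophils, were well above background on 3 and 4 arrays and were not tested. The same holds for Ccl17 and Cxcl17 with 2 arrays each and Cxcl14 with 1. Ccl8 was detected on 2 arrays. Ccl2, the main monocyte attractant, was detected on 4, with log2 levels of -2.34, -2.28 and -1.97 in the MOD group and -2.86, -2.51 and -2.36 in the SA-H group.

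Of the other atypical receptors, none was called. Ackr2, which degrades inflammatory CC chemokines, had a log2 fold change of -0.04 with a 95% interval of -0.82 to 0.75. Ccrl2, which presents chemerin, was at 0.20 with an interval of -0.48 to 0.89, but at -1.53 in the authors' value table. Ackr4 was detected on 3 arrays. Gpr182, an atypical receptor of sinusoidal endothelium that lies outside the naming rule, was called higher. Its log2 level was 0.24, 0.40 and 0.76 in MOD against 1.81, 1.24 and 1.64 in SA-H, without overlap. The log2 fold change was 1.09 (standard error 0.27, unadjusted p = 0.00439 and adjusted p = 0.0944 from limma), with 1.14 and 1.41 within the scan days. The platelet chemokine genes Ppbp and Pf4, also outside the rule, were at -0.55 and 0.42, neither of them called. Pitpnm3 was at -0.01, and Cmklr1 and Ccr1l1 were too dim.

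Genes that carry the signal of chemokine receptors were taken from a list of 81, of which 67 were tested. Of these, 3 were called higher (4.48%, against 7.77% of all genes) and 2 lower (2.99%, against 5.04%), with a median log2 fold change of -0.14. The higher ones were Prkcz, an atypical protein kinase C, at 2.16 (standard error 0.36), the adaptor gene Crkl at 2.11 (standard error 0.71), and Pik3r5, a regulatory subunit of the PI3 kinase driven by G proteins, at 1.39 (standard error 0.27). Pik3r5 was at -0.80, -1.35 and -0.98 in MOD against 0.05, 0.40 and 0.58 in SA-H. The lower ones were Rock1, a kinase of cell contraction, at -1.01 (standard error 0.27), and Rgs13, which shortens G protein signaling in germinal center B cells, at -1.20 (standard error 0.46). Rgs13 was at -0.02, -0.34 and 0.78 in MOD against -1.94, -0.63 and -0.62 in SA-H. The groups overlapped for Crkl and not for the other 4. The number called lower depended on the arrays used, from 0 without SA-H array 4 (against 3.5% of all genes) to 7 without SA-H array 6 (against 7.66%). It was 6 without SA-H array 5 (against 6.67%) and 4 without MOD array 2 (against 5.26%). It was 1 without MOD array 1 (against 3.44%) and 1 without MOD array 3 (against 4.32%). By the authors' values none was called higher (against 2.09% of all genes) and 1 lower (against 6.96%). Gnai3, an inhibitory G protein subunit (-0.97), Akt1, a kinase downstream of PI3 kinase (-0.94), Grk5, a receptor kinase (-0.84), and Stk4 (-0.69) were lower, and the scaffold gene Bcar1 (0.85) higher, at an unadjusted p under 0.05 without a fold change of 2.

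RNA and tissue markers also differed between the arrays. Of 12 ribosomal protein genes, 11 had a log2 fold change above 0, with a median of 0.47, and their summed log2 level was 9.41 to 9.66 in the MOD group and 9.64 to 10.67 in the SA-H group. Of 6 tested fat markers, 4 were called lower and 0 higher, with a median of -2.42 and summed levels of 3.25 to 3.79 and 2.37 to 2.61. On all arrays, 2 of these 6 were well above background. The 4 called lower (Cidec, Car3, Adipoq and Cfd) were tested only through the MOD group, where they are higher, so these calls are no support. Of 9 pancreas markers, 2 were tested, and they went opposite ways. Ins2 was called higher, at 2.59, and Cela1 was at -0.84 with overlapping groups. The summed level of the list was 0.27 to 0.98 in the MOD group and 1.36 to 2.92 in the SA-H group. The dendritic cell list had 1 of 7 tested genes called higher, with a median of 0.18. Their part in the chemokine values was not tested.

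**Figure D5:**
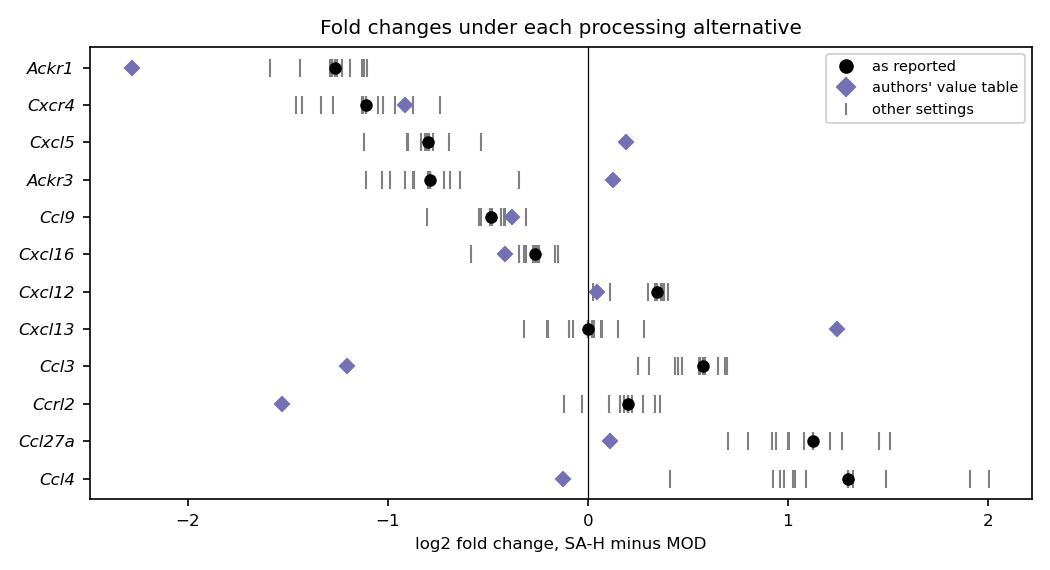
Log2 fold change of SA-H minus MOD (x axis) of 12 genes under each processing alternative (grey bars), in the authors' value table (purple diamonds) and as reported (black circles). Ackr1 and Cxcr4 stay below 0 in all of them, while Cxcl5, Ackr3, Ccl3, Ccl4 and Ccrl2 change sign in the table of the authors, Ccrl2 also under other settings.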

How the data were processed

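Spleen RNA on 6 arrays, 3 per group, was analysed from the scanner files. The authors made the intensity values with Agilent Feature Extraction 11.0.1.1, which subtracts background and corrects gradients within an array, without any scaling across arrays. In addition the authors deposited log2 values in a table, by steps not given in the sources used here. The median of each column was 5.35 over the scanner probes. Here processed signals were put on the log2 scale and each array's 75th percentile was subtracted. Spots flagged as outliers were left out, and replicate spots were averaged. Of 39429 probes, 27234 (69.1%) received a symbol through their RefSeq accession (GRCm38.p6 annotation). Probes were kept if they had a value on each of the 6 arrays and exceeded background throughout a group, and the brightest one represented its gene.

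SA-H was set against MOD in limma 3.58.1 under R 4.3.3 (empirical Bayes, Benjamini-Hochberg adjustment over 14574 genes and targets), and the code was tested on simulated data with 200 changed genes. The members and gene lists were chosen with earlier results of these data known. Every member may be named, with values per array for members called, past the unadjusted p, or known in spleen, extended to members whose groups did not overlap or whose arrays stood apart, chosen after their values were seen. The scanner files hold median and not mean spot signals, so normexp (offset 50) used the medians. Alternatives were other scalings, filters and probe rules, normexp, the value table, scan day or slide scan as blocks, analysis of variance and leaving out each array. The number of arrays limits the precision. Results of some genes are not reported here.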

Additional observations from a re-analysis of the deposited data

How the results depend on the processing

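Ackr1 kept its direction and its call under all 17 alternatives. The number of chemokine genes called lower, 2 as reported, was 5 with scaling by the median (15.2%, against 14.9% of all genes). It was 3 with the scan day as a block (9.09%, against 7.16%) and 3 in the authors' value table (9.09%, against 6.96%). With normexp it was 1 (3.03%, against 2.66%), as it was without a filter (1.75%, against 2.3%) and with analysis of variance (3.03%, against 3.45%). When each array was left out it was 1 to 2 (3.03% to 6.06%, against 3.44% to 7.66%). The number called higher, 0 as reported, was 1 with normexp (3.03%, against 6.01% of all genes) and with probes well above background on all 6 arrays (3.45%, against 6.81%). With every kept probe on its own, 1 chemokine probe was called higher, a Ccl27a probe, against 7.33% of 16886 probes. The number of chemokine genes called higher was also 1 (3.03%) with the mean of kept probes (against 7.5%) and with slide scans as a random term (against 8.97%). It was 2 in the authors' value table (6.06%, against 2.09%) and without a filter (3.51%, against 5.04%). With the scan day as a block it was 3 (9.09%, against 11.4% of all genes). When each array was left out it was 0 to 2, with 2 without MOD array 2 (6.06%, against 11.1%). It was 1 when SA-H array 5 (3.03%, against 9.5%) or SA-H array 6 (3.03%, against 9.41%) was omitted. The median log2 fold change of the chemokine genes was -0.32 with scaling by the median and -0.20 to 0.12 when each array was left out. The number of signaling genes called lower, 2 of 67 as reported, was 11 of 67 with scaling by the median, where 14.9% of all genes were called lower. It was 5 with the scan day (7.16% of all genes) or the slide scan (6.79%) as a block. It was 1 with quantile normalization (5.33%), normexp (2.66%), no filter (2.3%) or the mean of kept probes (4.93%). Analysis of variance (3.45%) and the authors' value table (6.96%) also gave 1. When each array was left out it was 0 to 7 (3.44% to 7.66% of all genes). The number of signaling genes called higher was 0 in the authors' value table (against 2.09% of all genes) and 3 as reported (4.48%, against 7.77%). It was 2 to 3 when each array was left out (against 5.02% to 11.1% of all genes). Of the 33 chemokine genes, 13 had the other sign in the authors' value table. Of these, Ccl3 (-1.20) and Ccrl2 (-1.53) were called there, both lower, and Cxcr5 (0.80) and Ccr6 (0.90) passed an adjusted p of 0.05 without a fold change of 2. The cause of these changes was not tested. Of the 14574 genes and targets tested, 0 passed an adjusted p of 0.05 as reported. It was passed by 1104 with scaling by the median, 1082 with the scan day as a block, 287 with normexp and 1794 in the authors' value table. Of the 33 chemokine genes tested, 1, 1, 1 and 9 passed in these 4 settings, in the same order.

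No paired analysis was possible because the groups share no replicate numbers, and the scan day and slide scan blocks above match arrays by scanning only. Of the 57 genes, 24 were not tested, because no probe of theirs was well above background throughout either group. Among these 24, 9 were detected on no array and have no measured level. Most of the others were detected on part of the arrays in each group.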
